A study of Mus musculus with 4 samples.

Results

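The naive pluripotency transcription factors described here are Esrrb, Tfcp2l1, Nr0b1, Nr5a2, Tbx3, Prdm14, Sall4 and Tcl1. They were chosen by name, as all non-control probes that the scanner files list under these genes, by a rule that reads no measured value, although the set was drawn up with earlier results of these data known. This gave 8 of 35157 genes and 13 of 55681 probes. The files list 7 of the genes under these symbols and the remaining gene, Tfcp2l1, under its older symbol Tcfcp2l1. RNA from 4 mouse cell populations had been labelled with Cy3 and hybridised to Agilent 1-colour arrays, 1 array for each population. The populations were 2 lines of induced pluripotent stem cells (reprogrammed somatic cells), called iPS-OSH and iPS-J, together with embryonic stem cells (ESC) and fibroblasts from mouse embryos (MEF), a connective tissue cell. The iPS lines and the fibroblasts were of C57BL/6 background, and ESC came from 129SV mice. The pluripotent populations were grown in medium with the cytokine LIF and MEF in a medium without it, so medium and cell type cannot be told apart. How the iPS lines were made, the number of clones behind each and the ages of the cells are not given in the sources used here.

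Pluripotent stem cells of the mouse can be held in a naive state, close to that of the inner cell mass before implantation, by LIF and by Wnt signalling. These cues act through a second tier of transcription factors around Oct4, Sox2 and Nanog. In this tier Esrrb, Nr5a2 and Nr0b1 are orphan members of the nuclear receptor family, Tfcp2l1 belongs to the grainyhead-like family, Tbx3 is a T-box factor, Prdm14 is a PR domain zinc finger protein and Sall4 a spalt-like zinc finger protein. Tcl1 is not a DNA-binding factor but a co-activator of the kinase Akt, and it is counted with them because it sits downstream of the same network. Fibroblasts are not known to use most of these genes, with Tbx3, a developmental regulator of limb and other mesenchyme, as the exception.

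Each value is a processed signal, which is the background-subtracted brightness of a spot in arbitrary units. For comparisons, log2 signals were set relative to the 75th percentile of their array, and a difference of at least 2-fold was called higher or lower. A probe that was not well above background on an array has only a bound there. The difference is then given as at least N-fold, against the higher of the probe's own signal and the lowest signal well above background on that array. With 1 array per group there is no spread between cultures, no test was possible and no p-value is given. Probes printed 10 times on each array had a median log2 SD between spots of 0.07 to 0.15, which gives a difference between arrays a spot SD of 0.12 to 0.19. The scans fell in 3 sessions, session 1 for MEF, session 2 for the iPS lines and session 3 for ESC, so that scan session and population cannot be told apart except between the iPS lines. The share of the 59305 non-control spots that were well above background ran from 67.0% to 81.7%.

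Promoter sequences were looked up for the members in RefSeq (GRCm38.p6), as windows of 250 bases before to 50 bases after a transcript start. Of the 8 genes, 5 had a window (Esrrb, Tfcp2l1, Nr0b1, Nr5a2 and Tcl1), with 7 windows in all, and Tbx3, Prdm14 and Sall4 had none. The bases before the start are printed for Tfcp2l1, Nr0b1 and Tcl1, which are the members with a window whose probes were not well above background in MEF. Capitals mark the letters TATAAA, the core of a TATA box, searched on the transcribed strand and chosen after the sequences had been seen.
Tfcp2l1, chr1:118627695-118627944, plus strand: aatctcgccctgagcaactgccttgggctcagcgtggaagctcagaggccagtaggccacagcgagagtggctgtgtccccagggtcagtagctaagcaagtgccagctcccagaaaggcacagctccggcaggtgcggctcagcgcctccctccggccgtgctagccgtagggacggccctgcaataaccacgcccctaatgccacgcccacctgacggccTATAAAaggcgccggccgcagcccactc
Nr0b1, chrX:86191525-86191774, plus strand: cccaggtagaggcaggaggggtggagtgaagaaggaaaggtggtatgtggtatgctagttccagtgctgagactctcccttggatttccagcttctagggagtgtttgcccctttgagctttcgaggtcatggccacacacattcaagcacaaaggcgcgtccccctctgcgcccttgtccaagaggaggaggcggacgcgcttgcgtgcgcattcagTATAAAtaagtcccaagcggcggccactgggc
Tcl1, chr12:105222738-105222987, minus strand: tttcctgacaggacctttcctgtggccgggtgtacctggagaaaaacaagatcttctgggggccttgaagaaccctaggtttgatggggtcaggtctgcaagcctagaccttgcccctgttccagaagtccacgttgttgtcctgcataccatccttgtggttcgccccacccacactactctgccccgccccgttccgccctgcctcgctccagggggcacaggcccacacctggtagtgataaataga
TATAAA began 28 bases before the start of Tfcp2l1 and 32 bases before that of Nr0b1, and the window of Tcl1 held none. It was present in 2 of the 7 windows of the members and in 7.59% of all 32851 windows. The GC content was 65.3% in the window of Tfcp2l1, 58.7% in that of Nr0b1 and 56.7% in that of Tcl1, against a median of 52.7% over all windows.

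Motifs bound by factors of this network were searched on both strands of the 7 windows. The octamer ATTTGCAT, read by Oct4, is found in 1.74% of all windows, and the element TCAAGGTCA, shared by Esrrb and Nr5a2, in 0.423%. The Prdm14 motif GGTCTCTAA is found in 0.256%, the T-box site AGGTGTGA in 1.28%, the Klf motif GGGTGTGG in 3.56%, the Sox motif CATTGTT in 3.78% and the Tfcp2l1 motif in 3.44%. No motif of the 7 was present in any of the 7 windows of the members. These letters are therefore not in these windows, and nothing follows for the binding of the factors.

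By the brightest probe of each gene, taken by its mean over the 4 arrays, all 8 factors had higher signals in each pluripotent line than in MEF. Of their other probes, probe 2 of Sall4 went the opposite way. For 7 of them the difference was large, and Tbx3 was the exception. The numbers of members at least 2-fold higher were 8 of 8 for iPS-OSH, 8 of 8 for iPS-J and 8 of 8 for ESC. Among all genes compared, 12.8% exceeded MEF by 2-fold or more in iPS-OSH, 16.2% did in iPS-J and 22.1% did in ESC, and no member was among the 23.4%, 24.6% and 16.5% that were lower. The median log2 difference of the members was 7.43 for iPS-OSH, 7.09 for iPS-J and 7.22 for ESC, with 4 of the 8 values in each being lower bounds. Over the genes measured on both arrays the medians were -0.29, -0.14 and 0.15. Of the genes called in either direction, the share that was higher was 35.4% for iPS-OSH, 39.7% for iPS-J and 57.2% for ESC, and with other scalings, another background correction or other probe rules it lay between 26.1% and 45.6%, 19.5% and 51.0%, and 36.2% and 68.4%. The count of members stayed at 8 of 8 under these settings. A stricter limit, which counts a signal as detected only above 95% of the ERCC control probes of the array, lowered the bounds in iPS-OSH to at least 6.52 for Tfcp2l1, 6.34 for Nr0b1, 4.07 for Prdm14 and 6.01 for Tcl1. Under it Nr5a2 and Sall4 also had only bounds, of 5.91 and 6.59 in that line. The 3 comparisons share the same MEF array, so their likeness is no independent evidence. RNA came from whole cultures, in which fewer cells of a type and less RNA per cell cannot be told apart.

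**Figure D1:**
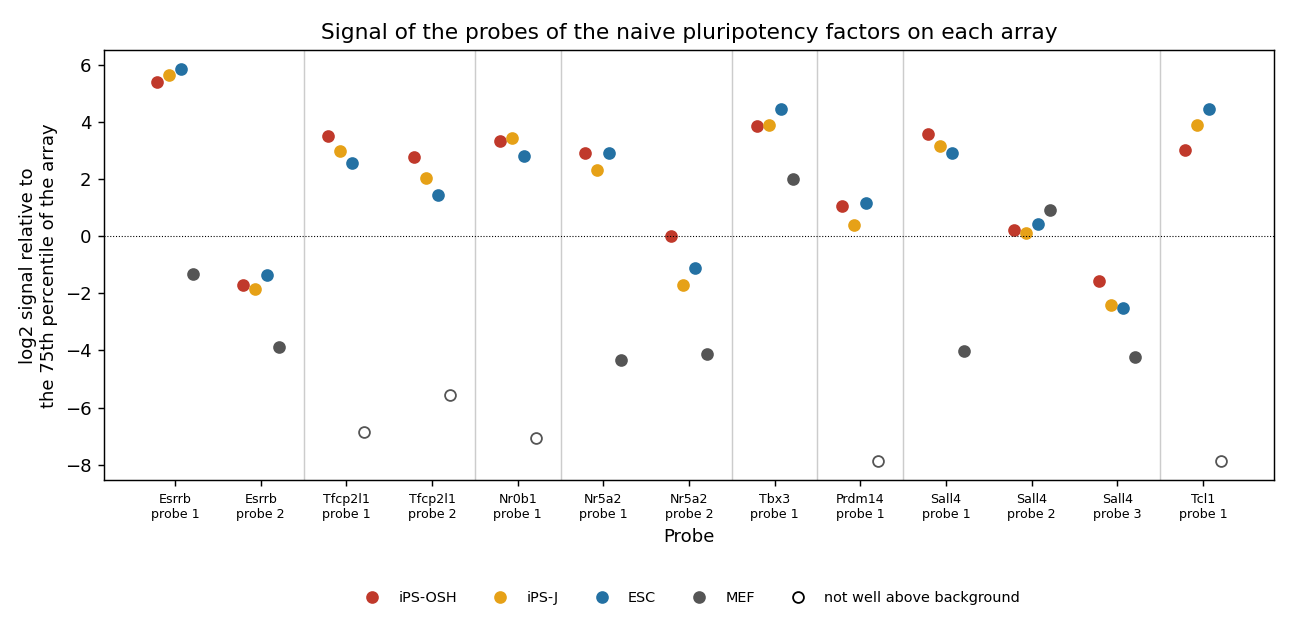
Log2 signal of each of the 13 probes on each array, relative to the 75th percentile of that array (dotted line at 0). Filled points are well above background and open points are not, and the MEF point is the lowest of the 4 for every probe except probe 2 of Sall4.

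Esrrb, the orphan nuclear receptor that is a main target of Wnt signalling in naive cells, had 2 probes. Its brighter probe, at chr12:87862509-87862568 (mm9, plus strand), had signals of 66315 in iPS-OSH, 62563 in iPS-J, 74913 in ESC and 704 in MEF. ESC was highest and iPS-OSH lowest of the pluripotent lines, with MEF far below but still well above background. The log2 difference from MEF was 6.73 (106-fold) for iPS-OSH, 6.98 for iPS-J and 7.17 (144-fold) for ESC. Among the pluripotent lines the range was 1.35-fold, and the gap of 0.18 on the log2 scale between ESC and iPS-J was as large as the spot SD of 0.18.

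The other Esrrb probe, at chr12:87856069-87856128, is annotated by a cDNA clone from retina and carries the symbol Esrrb in 3 of the 4 files. It gave much lower signals, 481 in iPS-OSH, 346 in iPS-J, 515 in ESC and 121 in MEF. ESC was again highest and MEF lowest, but the log2 differences from MEF were only 2.17, 2.03 and 2.53. The median of both probes' differences was 4.45 in iPS-OSH, in place of 6.73. In MEF this probe lay below 220, the signal under which 95% of the ERCC control probes lay there.

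Nr5a2, a nuclear receptor that binds the same element as Esrrb and is able to activate Oct4, had 2 probes on mm9 chromosome 1, minus strand. The brighter probe, at chr1:138740903-138740962, had signals of 11738 in iPS-OSH, 6126 in iPS-J, 9888 in ESC and 86.8 in MEF. The log2 difference from MEF was 7.25 for iPS-OSH, 6.65 for iPS-J and 7.27 for ESC, or 153-fold, 100.4-fold and 154-fold. After scaling, ESC and iPS-OSH differed by 0.01 on the log2 scale, less than the spot SD of 0.16, and iPS-J lay 0.60 below iPS-OSH.

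The other Nr5a2 probe, at chr1:138741712-138741771, had signals of 1575 in iPS-OSH, 383 in iPS-J, 601 in ESC and 100.5 in MEF. It too was lowest in MEF, with log2 differences of 4.14, 2.44 and 3.01, but it set the pluripotent lines in another order. By this probe iPS-OSH was 1.13 above ESC on the log2 scale (2.19-fold) and 1.71 above iPS-J (3.26-fold). The files assign both Nr5a2 probes to the same 2 RefSeq transcripts, and the cause of the difference between them was not tested.

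Nr0b1, also called Dax1, is a nuclear receptor without a DNA-binding domain that acts as a co-repressor and binds Oct4 and Nr5a2. Its probe, at chrX:83441169-83441228 (mm9), was the only one of the 13 printed 10 times on each array. The 10 spots ran from 14773 to 16601 in iPS-OSH (median 15736), from 12014 to 14538 in iPS-J (median 13730) and from 6796 to 10835 in ESC (median 8785). In MEF the 9 spots kept ran from 7.54 to 23.8, none of them was well above background, and a further spot of 68.0 was left out as an outlier by the software's own mark.

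The spots of iPS-OSH and iPS-J each had a log2 SD under that of ESC, with 0.05 and 0.08 against 0.21. After scaling, the level of iPS-J was 0.12 above iPS-OSH on the log2 scale and iPS-OSH was 0.54 above ESC. The difference from MEF was at least 9.03 for iPS-OSH, at least 9.15 for iPS-J and at least 8.49 for ESC, which is at least 523-fold, 567-fold and 360-fold.

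**Figure D2:**
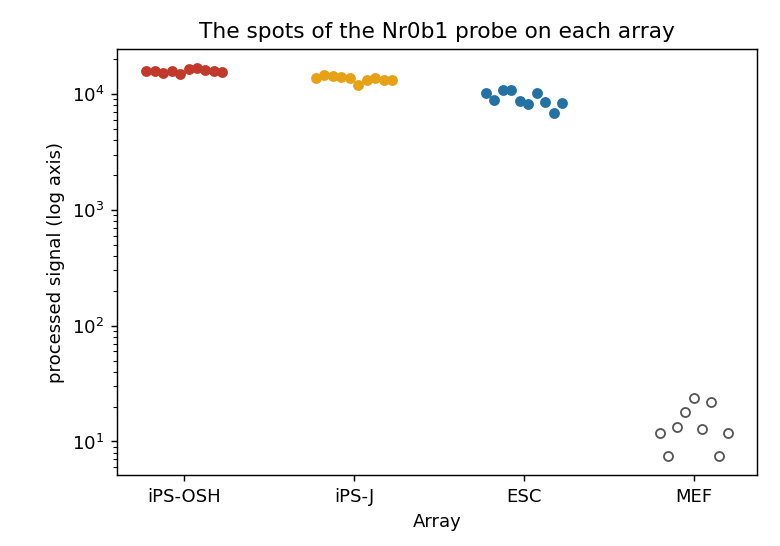
Processed signal (log axis) of the spots of the Nr0b1 probe on each array, with 10 spots per pluripotent array and 9 kept in MEF. Spots of 1 array are technical repeats, and the open MEF points, none of them well above background, reach 23.8 at most while the lowest pluripotent point lies at 6796.

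Tfcp2l1, a grainyhead-like factor that is a main effector of LIF and Stat3, had 2 probes on mm9 chromosome 1, plus strand. Probe 1, at chr1:120581646-120581705, had signals of 17865 in iPS-OSH, 9848 in iPS-J, 7753 in ESC and 15.4, not well above background, in MEF. Probe 2, at chr1:120577637-120577696, had signals of 10627, 5108 and 3599 in the pluripotent lines and 37.0, likewise not well above background, in MEF. By both probes iPS-OSH was highest and ESC lowest of the pluripotent lines. The difference of probe 1 from MEF was at least 9.21 for iPS-OSH, at least 8.69 for iPS-J and at least 8.27 for ESC on the log2 scale, or at least 593-fold, 412-fold and 308-fold.

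Tbx3, which lies downstream of LIF and phosphoinositide 3-kinase in naive cells, was the only member whose brightest probe exceeded the 75th percentile of the array in fibroblasts. Its probe, at chr5:120134511-120134570 (mm9, plus strand), had signals of 22530 in iPS-OSH, 18278 in iPS-J, 28932 in ESC and 7036 in MEF. MEF was the lowest array, but its signal was well above the percentile there, which was 1765. The difference from MEF was 1.85 in iPS-OSH (3.61-fold), 1.88 in iPS-J (3.69-fold) and 2.47 in ESC (5.55-fold). After scaling, ESC was 0.59 above iPS-J on the log2 scale, and iPS-J and iPS-OSH differed by 0.03, less than the spot SD of 0.12.

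Prdm14, which represses the genes of germ layers and of DNA methylation in naive cells and germ cell precursors, had 1 probe at chr1:13103555-13103614 (mm9, minus strand). Its signals were 3272 in iPS-OSH, 1616 in iPS-J, 2905 in ESC and 7.54 in MEF. The MEF value is the lowest processed signal on that array, shared within 1% by 3558 spots, so it marks the bottom of the scale and not a level. The difference from MEF was at least 6.76 for iPS-OSH, at least 6.08 for iPS-J and at least 6.85 for ESC on the log2 scale, or at least 109-fold, 67.6-fold and 115-fold. After scaling, ESC and iPS-OSH differed by 0.09, less than the spot SD of 0.16, and iPS-J lay 0.68 below iPS-OSH.

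Tcl1, the co-activator of Akt, had 1 probe at chr12:106454973-106455032 (mm9, minus strand). Its signals were 12553 in iPS-OSH, 18361 in iPS-J, 28824 in ESC and 7.54, the bottom of the scale, in MEF. The pluripotent lines stood in the order ESC, iPS-J and iPS-OSH, with log2 gaps of 0.58 and 0.88 after scaling that exceeded the spot SDs of 0.18 and 0.12. The difference from MEF was at least 8.70 for iPS-OSH, at least 9.59 for iPS-J and at least 10.16 for ESC on the log2 scale, or at least 417-fold, 768-fold and 1145-fold.

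Sall4, a spalt-like zinc finger factor that binds Oct4 and Nanog, had 3 probes on mm9 chromosome 2, minus strand, and they did not give the same picture. The median of the 3 probes' own differences from MEF in iPS-OSH was 2.66, in place of 7.62 by the brightest. Probe 1, at chr2:168574333-168574392, lies nearest the end of the transcript and was the brightest, with signals of 18778 in iPS-OSH, 11224 in iPS-J, 9966 in ESC and 108 in MEF. It was higher than in MEF by 7.62 in iPS-OSH (196-fold), 7.21 in iPS-J (148-fold) and 6.96 in ESC (124-fold). Probe 3, at chr2:168580437-168580496, had signals of 532, 232 and 230 in the pluripotent lines and 94.7 in MEF, which gave differences of 2.66, 1.80 and 1.71. In ESC and MEF this probe lay below 237 and 220, the signals under which 95% of the ERCC control probes lay on those arrays.

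Probe 2 of Sall4, at chr2:168578172-168578231, went the opposite way. Its signals were 1824 in iPS-OSH, 1346 in iPS-J, 1740 in ESC and 3340 in MEF, so that MEF was the highest array. The log2 differences from MEF were -0.70 for iPS-OSH, -0.80 for iPS-J and -0.51 for ESC, all within 2-fold. The 2 probes that disagree are printed so that they can be searched against other transcripts.
Sall4 probe 2: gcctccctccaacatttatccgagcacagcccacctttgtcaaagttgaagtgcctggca
Sall4 probe 3: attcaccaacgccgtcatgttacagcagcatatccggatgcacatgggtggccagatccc
In the transcript these probes start at positions 2666 and 2094, which are 572 bases apart, whereas in the genome they lie 2265 bases apart. The files assign probes 1 and 2 to the same 3 RefSeq transcripts of Sall4 and probe 3 to 1 of them. Whether probe 2 also binds another RNA of fibroblasts was not tested.

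**Figure D3:**
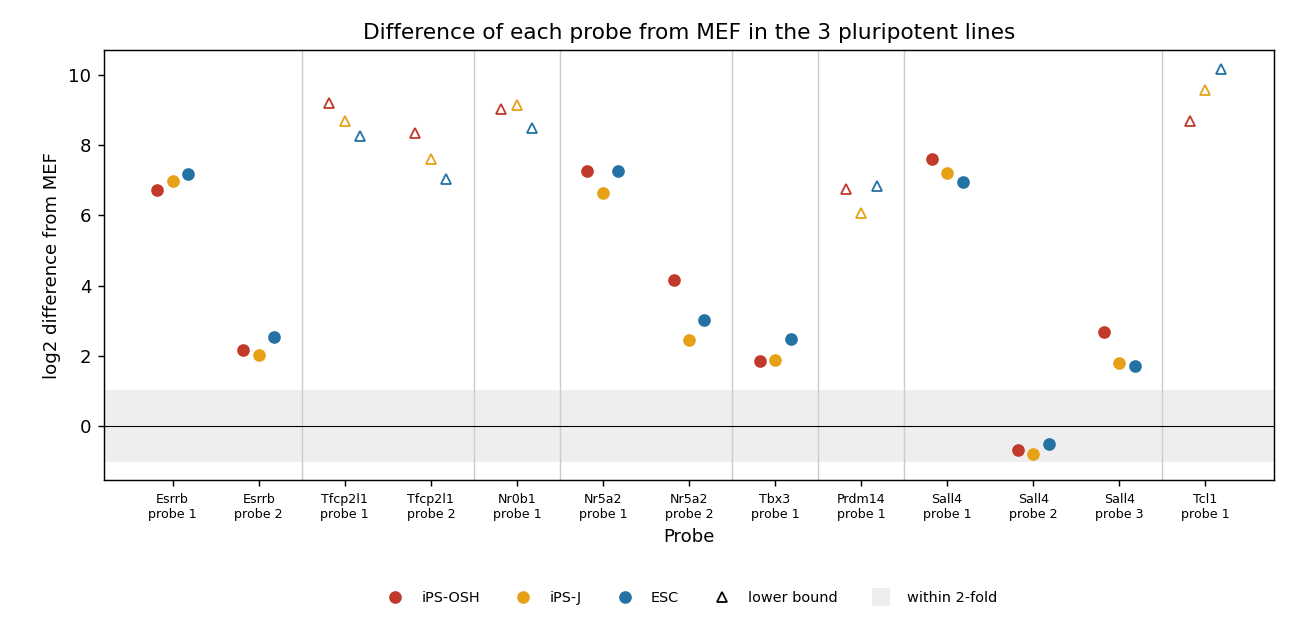
Log2 difference from MEF of each of the 13 probes in iPS-OSH, iPS-J and ESC, with lower bounds as open triangles and the grey band marking differences within 2-fold. Tbx3 is the only member whose brightest probe lies under 6, and probe 2 of Sall4 is the only probe below 0.

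Among the pluripotent lines most members lay within 2-fold of each other, as did most genes, with 64.7% of all genes within 2-fold for iPS-OSH against ESC, 70.5% for iPS-J against ESC and 84.5% between the iPS lines. Comparing iPS-OSH with ESC, 7 of 8 lay within 2-fold, 0 were higher and 1, Tcl1, was lower, where 8.76% of all genes were higher and 26.5% lower. The log2 difference of Tcl1 was -1.46, that is 2.75-fold lower in iPS-OSH. Tfcp2l1 was close to the limit on the other side, at 0.95 by probe 1 and 1.30 (2.47-fold) by probe 2. Sall4 lay at 0.66 and Nr0b1 at 0.54, while Nr5a2 (-0.01), Prdm14 (-0.09), Esrrb (-0.43) and Tbx3 (-0.62) were at or below ESC. The median of the members was -0.05, against -0.27 over the genes measured on both arrays. The signs of Nr5a2 and Prdm14 turned with spike-in scaling, to 0.36 and 0.29, and also in the deposited table without scaling. Tfcp2l1 passed 2-fold in both, at 1.32 by the spike-ins and 1.21 in that table, and also with the median over its probes, at 1.12. With the median over its probes Nr5a2 lay at 0.56. The share of higher genes among all calls was 24.8%, and 49.3% with spike-in scaling and 46.5% with quantile normalization.

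Comparing iPS-J with ESC, all 8 members lay within 2-fold, where 5.39% of all genes were higher and 24.1% lower, so that 18.3% of the calls were higher, against 47.2% with quantile normalization. Nr0b1 (0.65), Tfcp2l1 (0.42) and Sall4 (0.25) were above ESC, and Esrrb (-0.18), Tcl1 (-0.58), Tbx3 (-0.59), Nr5a2 (-0.62) and Prdm14 (-0.77) were below it. The median of the members was -0.38, against -0.06 over the genes measured on both arrays. In both comparisons with ESC, Tfcp2l1, Nr0b1 and Sall4 stood above 0 and Esrrb, Nr5a2, Tbx3, Prdm14 and Tcl1 below it. Probe 2 of Sall4 lay on the other side of ESC, at -0.19 in iPS-OSH and -0.30 in iPS-J, as did the other Nr5a2 probe in iPS-OSH, at 1.13. In iPS-J the sign of Sall4 turned with quantile normalization, to -0.0028. As both comparisons use the same ESC array, a deviation of that array enters each of them. Strain differs as well between ESC and the iPS lines, and strain and cell type cannot be told apart here.

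The iPS lines were compared within 1 strain and 1 scan session. By the brightest probes all 8 members again lay within 2-fold, with 8.22% of all genes higher and 7.28% lower in iPS-OSH. Prdm14 (0.68), Nr5a2 (0.60), Tfcp2l1 (0.53) and Sall4 (0.41) were higher in iPS-OSH by more than the spot SD of 0.12. Tcl1 (-0.88) and Esrrb (-0.25) were higher in iPS-J by more than the spot SD. The differences of Nr0b1 (-0.12) and Tbx3 (-0.03) did not exceed it. This SD holds for single spots, whereas the Nr0b1 level is a mean over 10 spots. The standard error of that mean was 0.015 in iPS-OSH and 0.025 in iPS-J, less than the difference of Nr0b1. With spike-in scaling Esrrb (0.03), Nr0b1 (0.16) and Tbx3 (0.25) turned sign, as they did in the deposited table, and Tbx3 also with quantile normalization, to 0.08. Under spike-in scaling the share of higher genes among all calls went from 53.0% to 74.9%. The median of the members was 0.19, against -0.07 over the genes measured on both arrays. By the other probes Nr5a2 lay past 2-fold, at 1.71 (3.26-fold), and Esrrb on the other side of 0, at 0.14. Probe 2 of Tfcp2l1 lay at 0.72 and probe 3 of Sall4 at 0.86, while probe 2 of Sall4, at 0.11, did not exceed the spot SD.

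**Figure D4:**
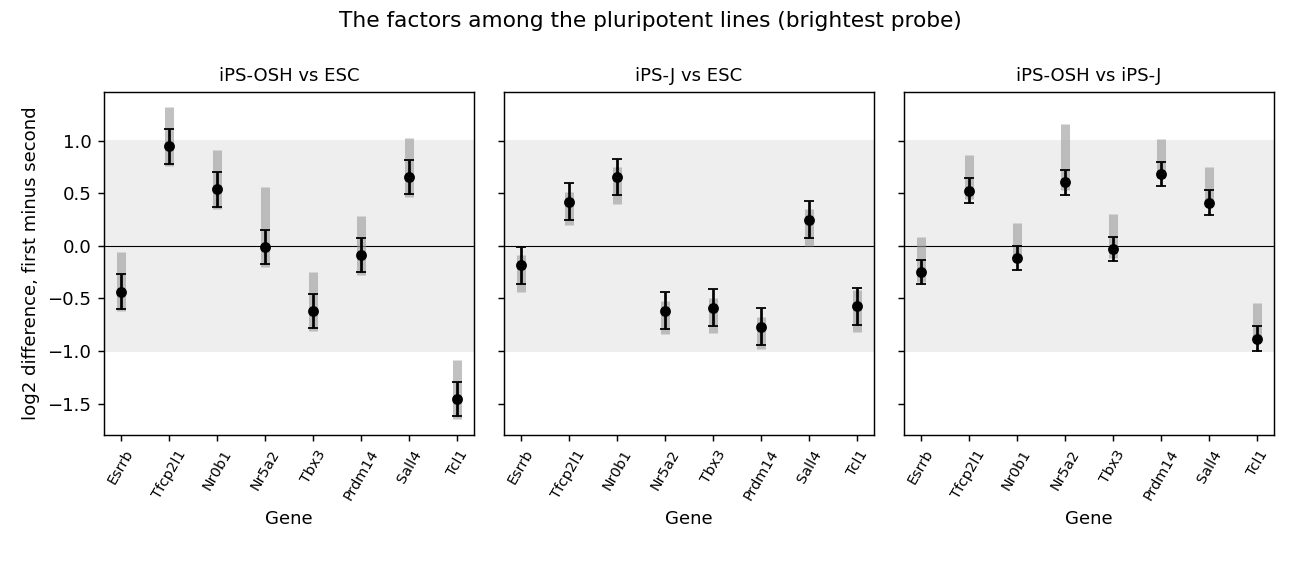
Log2 difference of each member by its brightest probe (points) in the 3 comparisons among pluripotent lines. Bars mark the spot SD, which leaves out the spread between cultures. Dark strips span the values under 8 other ways of processing and the light band marks differences within 2-fold. Only Tcl1 in iPS-OSH against ESC lies outside the band, at -1.46, while the strips of Tfcp2l1, Sall4, Nr5a2 and Prdm14 reach past it in some panels.

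Seen over the 3 pluripotent arrays, the members fell into a few shapes. With each gene taken by its brightest probe and centred on its own mean, Nr5a2 and Prdm14 were closest to each other. Their root mean square difference was 0.06 on the log2 scale, and both were lowest in iPS-J. Tfcp2l1 and Sall4 followed with 0.12, both highest in iPS-OSH and lowest in ESC, and then Esrrb and Tbx3 with 0.16, both highest in ESC. Other probes gave other shapes. By the other Nr5a2 probe iPS-OSH was 1.13 above ESC, and by probe 2 of Sall4 ESC was the highest pluripotent array. The shapes are descriptions over 3 arrays, picked from 28 pairs.

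Markers of other cell types were read on the same arrays. The summed scaled signal of 10 fibroblast markers (such as the collagen gene Col1a1) was 302 times the 75th percentile in iPS-OSH, 55.3 times in iPS-J, 44.5 times in ESC and 1011 times in MEF. In iPS-OSH all 10 exceeded ESC by 2-fold or more, with a median of 2.63, and in iPS-J 0 of 10 did. Of all genes, 8.76% exceeded ESC by this limit in iPS-OSH and 5.39% in iPS-J, so the count of 0 is near the share. The sum of 10 primitive endoderm markers (such as Gata6) was 10.3 in iPS-OSH, 149 in iPS-J, 21.0 in ESC and 10.3 in MEF, and all 10 were higher in iPS-J than in ESC, with a median of 3.03. By the brightest probes iPS-OSH, the pluripotent line with the highest fibroblast sum, was lowest for Tcl1, Esrrb and Tbx3 and highest for Tfcp2l1 and Sall4. Among these lines the other Esrrb probe was lowest in iPS-J, and probe 2 of Sall4 was highest in ESC. The line with the highest primitive endoderm sum, iPS-J, was lowest for Prdm14 and Nr5a2 and highest for Nr0b1. The rank of Tbx3 rests on a difference between the iPS lines within the spot SD. That of Nr0b1 rests on a difference between the iPS lines whose sign turned with spike-in scaling. What part these play in the values of the members was not tested.

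The remaining marker lists did not set an iPS line apart in this way. The sum of Pou5f1, Sox2 and Nanog was 67.4 in iPS-OSH, 73.0 in iPS-J, 85.6 in ESC and 0.159 in MEF. For 8 trophoblast markers it was 11.5, 12.8, 14.3 and 1.35, and for 6 germ cell markers 5.64, 7.44, 18.1 and 0.464. No list had all its markers under background on a pluripotent array, and Sox2 was not well above background in MEF.

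**Figure D5:**
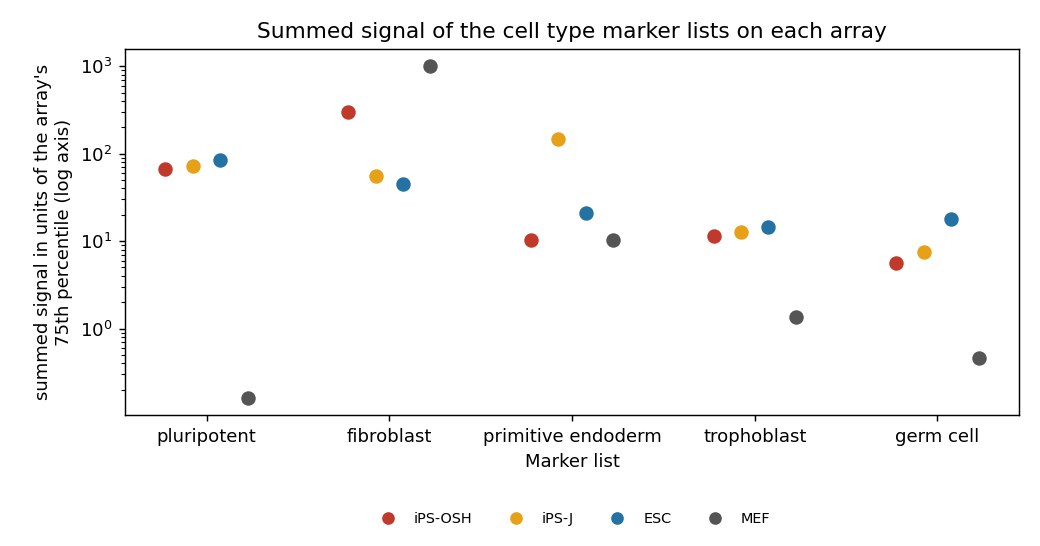
Summed signal of 5 lists of cell type markers on each array, in units of that array's 75th percentile (log axis), with 1 point per array. The fibroblast sum of iPS-OSH, at 302, lies between those of ESC (44.5) and MEF (1011), and the primitive endoderm sum is highest in iPS-J, at 149.

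The rest of the naive network, a list of 30 genes with Oct4, Sox2, Nanog and their partners, was high in the same lines. In each pluripotent line 28 of 30 were higher than in MEF and 0 lower, with medians of 6.42 for iPS-OSH, 6.44 for iPS-J and 5.45 for ESC. The shares of all genes against MEF were 12.8% higher and 23.4% lower in iPS-OSH, 16.2% and 24.6% in iPS-J, and 22.1% and 16.5% in ESC. Dppa5a, an RNA-binding protein of pluripotent cells, was higher by 11.09, 11.76 and 11.40, and the growth factor gene Fgf4 by 9.45, 10.44 and 10.20. Their MEF signals, 98.5 and 58.2, lay below 220, the signal under which 95% of the ERCC control probes lay in MEF. Against ESC, 6 were higher and 4 lower in iPS-OSH, and 4 higher and 4 lower in iPS-J, where 8.76% and 5.39% of all genes were higher and 26.5% and 24.1% lower. Zfp42, the Rex1 gene, differed from ESC by -4.83 in iPS-OSH and -4.28 in iPS-J, and Dppa3, a maternal factor of the zygote, by -1.82 and -1.85. In the other direction, Foxd3 stood 2.08 and Sp5 1.83 above ESC in iPS-OSH, and Dnmt3l stood 1.61 above ESC in iPS-J. The Sp5 signal in ESC, 224, lay below 237, the signal under which 95% of the ERCC control probes lay there.

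The signalling genes that feed the factors were called in both directions against MEF. Of 29 components of LIF, Wnt, bone morphogenetic protein and Akt signalling, 7 were higher and 8 lower in iPS-OSH, 8 and 8 in iPS-J, and 7 and 13 in ESC. Of all genes, 12.8% were higher and 23.4% lower in iPS-OSH, 16.2% and 24.6% in iPS-J, and 22.1% and 16.5% in ESC. The lower counts in the iPS lines and the higher count in ESC are near these shares, and the other counts lie above them. In the deposited table without scaling 15 in place of 8 were lower in iPS-J. Tcf7, a transcription factor of Wnt signalling, was higher by 5.28, 5.67 and 6.04, and the Wnt target Axin2 by at least 2.80, 3.32 and 3.12. The Tcf7 signal in MEF, 47.2, lay below 220, the signal under which 95% of the ERCC control probes lay in MEF. Pim3, a kinase gene induced by LIF, was higher by 2.67, 3.20 and 2.96. Il6st, the gp130 subunit of the LIF receptor, was lower than in MEF in each pluripotent line, with a difference of -2.87 in ESC. Its scaled log2 level was 1.92 in iPS-OSH, 1.38 in iPS-J, 1.04 in ESC and 3.90 in MEF. Akt1, the kinase that Tcl1 activates, stood 1.56 above ESC in iPS-OSH, where Tcl1 itself was lower. MEF was the highest array for Akt1, at a scaled log2 level of 5.52. The pluripotent levels of Akt1 were 4.38 (iPS-OSH), 3.23 (iPS-J) and 2.82 (ESC), so the arrays stood in the same order as for the fibroblast sum. Whether the differences of Akt1 and Tcl1 are linked was not tested.

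Of 18 cofactors, among them members of the chromatin complexes NuRD and PRC2, 5 were higher and 0 lower in iPS-OSH than in MEF. The counts were 7 and 0 in iPS-J, and 4 and 1 in ESC. Of all genes, 12.8%, 16.2% and 22.1% were higher and 23.4%, 24.6% and 16.5% lower, so the higher count in ESC is near the share. In the deposited table the counts became 3 and 0, 3 and 1, and 3 and 4. Ncoa3, the co-activator through which Esrrb works in stem cells, led the cofactors with differences of 2.37, 2.96 and 2.63. Eed, a PRC2 subunit, was higher by 1.72, 1.97 and 1.64. Among genes linked to primed epiblast, the state after implantation, 13 of 19 compared were higher than MEF for iPS-OSH, 12 of 18 for iPS-J and 12 of 19 for ESC. Another 3, 3 and 4 were lower. The shares of all genes were 12.8%, 16.2% and 22.1% higher and 23.4%, 24.6% and 16.5% lower, and the lower counts are near these shares. Dnmt3b, a DNA methyltransferase that Prdm14 represses, was among the higher genes, with 5.78, 6.52 and 5.57. Against ESC, 3 of 20 genes were higher and 4 lower in iPS-OSH, where 8.76% of all genes were higher and 26.5% lower. In iPS-J 3 of 19 were higher and 3 lower, where the shares of all genes were 5.39% and 24.1%.

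Relatives of the members did not follow them as a rule. Esrra, a relative of Esrrb that controls mitochondrial genes, had signals of 8249 in iPS-OSH, 7883 in iPS-J, 6630 in ESC and 17610 in MEF and lay within 2-fold of MEF in each line, and Esrrg was not well above background on any array. The relatives of Tfcp2l1 split, with Grhl1, Grhl2 and Grhl3 higher than MEF in each line and Tfcp2 and Ubp1 within 2-fold. Grhl2, an epithelial regulator, had signals of 3910, 2447 and 2202 against 102 in MEF. Sall1 had signals of 2687 for iPS-OSH, 2403 for iPS-J and 2849 for ESC against 35.4, not well above background, in MEF, whereas Sall2 was highest in MEF at 4099.

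Of 8 other T-box genes, 6 were lower than MEF in each line and 0 higher, where Tbx3 was higher and 23.4%, 24.6% and 16.5% of all genes were lower. With other processing the number lower ran from 5 to 7. Tbx15, a regulator of mesenchyme, had signals of 1589 in iPS-OSH, 163 in iPS-J, 136 in ESC and 11117 in MEF, and iPS-OSH, the line with the highest fibroblast sum of the pluripotent arrays, was also the highest of these for Tbx15. Of the 13 relatives of Prdm14, 3 were higher and 3 lower than MEF in iPS-OSH, 2 and 1 in iPS-J, and 4 and 2 in ESC. The shares of all genes were 12.8% higher and 23.4% lower in iPS-OSH, 16.2% and 24.6% in iPS-J, and 22.1% and 16.5% in ESC. Prdm1, which acts with Prdm14 in germ cell precursors, had signals of 1024, 522 and 1392 in these lines and 403 in MEF. Of the relatives of Tcl1, Tcl1b2 had signals of 273, 126, 864 and 110, and ESC was its highest array, as for Tcl1. Nr0b2 and Nr5a1, the relatives of Nr0b1 and Nr5a2, lay within 2-fold of MEF in each line. Probes of these gene families can share sequence, and cross-hybridisation between relatives was not tested.

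The genes most like each member over the 4 arrays were named by the smallest root mean square difference after centring, among 15297 genes well above background on all pluripotent arrays. For Esrrb these were Nup210 (0.11 on the log2 scale), Naa11 (0.14) and Sall1 (0.16). Nr5a2 was nearest to Tfap2c (0.16), Mreg (0.17) and Pla2g1b (0.20), and Tbx3 to Nrtn (0.03), Pisd-ps3 (0.06) and H1f1 (0.07). Nrtn had signals of 10321 in iPS-OSH, 8522 in iPS-J, 13121 in ESC and 3112 in MEF, which repeats the order of Tbx3. Sall4 was nearest to Ildr1 (0.14), Morc1 (0.18) and Ak7 (0.18).

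For the members not well above background in MEF, likeness rests partly on a MEF value without a level. The same holds for the matches of Esrrb with Naa11 and Sall1 and of Sall4 with Ildr1 and Ak7. These matched genes were not well above background in MEF. Tfcp2l1 was nearest to Apela (0.33), Arl14epl (0.34) and Dppa2 (0.35), Nr0b1 to Dppa4 (0.25), Dppa2 (0.27) and Rbmxl2 (0.28), and Prdm14 to Tex19.1 (0.14), Tdh (0.24) and Nanog (0.29). Tcl1 had the least close neighbours, Pigp (0.35), Cdh1 (0.36) and Dppa5a (0.44). With 4 arrays and this many genes, close matches are no sign of a shared control.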

How the data were processed

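Per the file headers, the authors' arrays were read with Agilent Feature Extraction 10.5.1.1, which gave a processed intensity per spot in mm9 coordinates. The deposited value table holds the same intensities to within 0.497%. Intensities were averaged as log2 over the unflagged spots of a probe and set relative to the array's 75th percentile over non-control spots. The brightest probe stood for a gene, and probes were named through RefSeq (GRCm38.p6) by accession, symbol or synonym where they matched. The other 24442 of 55681 probes kept the name given with the array, so the counts of all genes include names without a RefSeq match. Python 3.11.15, pandas 2.3.3 and limma 3.58.1 were used, and the scripts were tested on simulated data.

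The members, marker lists and gene lists were chosen with earlier results of these data known. All 8 members were named, with up to 4 genes of each list by the size of their difference, relatives well above background on a pluripotent array, and the 3 genes most like each member. The MEF file carries other gene names than the rest at 1732 spots. In all, 8 alternatives were planned and 2 were added after seeing the data.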

Additional observations from a re-analysis of the deposited data

How the results depend on the processing

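At the 2-fold threshold, the number of members higher than MEF stayed at 8 in each pluripotent line under the other planned settings and with ERCC-based detection. It was 7 where Tfcp2l1, listed under an older symbol, was left out, and at a 4-fold threshold it was 7 in both iPS lines, without Tbx3, and 8 in ESC. Comparing iPS-OSH with ESC, 0 members were higher as reported, but 2 (Tfcp2l1 and Sall4) with spike-in scaling, 1 (Tfcp2l1) with the median over a gene's probes and 1 (Tfcp2l1) in the deposited table without scaling. At 4-fold, 0 members in place of 1 were lower there. Comparing iPS-OSH with iPS-J, 1 was higher with the median over probes (Nr5a2) and 1 in the deposited table (Prdm14). Of 384 recomputed differences of members, 188 moved by less than the spot SD and 196 by more, and 0 of those past 2-fold turned sign. The lower bounds against MEF also moved: with ERCC-based detection that of Tfcp2l1 in iPS-OSH fell from 9.21 to 6.52, that of Prdm14 from 6.76 to 4.07 and that of Tcl1 from 8.70 to 6.01. With the median over probes, taken of each probe's own difference, Sall4 in iPS-OSH against MEF lay at 2.66 in place of 7.62 and Esrrb at 4.45 in place of 6.73. The number of arrays, 1 per group, limits precision throughout. No paired analysis was possible because each group had 1 array.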
